A study of Mus musculus with 17 samples.

Results

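Macrophages of the mouse mammary gland were compared after culture and directly after sorting. The comparison used 8 of the 17 libraries of the series, taken from its 12 groups: every cultured macrophage library (n = 4), and every control library of the 2 Cre experiments (n = 4), joined on gene name over the protein-coding genes of both deposited tables. The cultured cells came from wild type virgin mice, were sorted on F4/80 and CD11b and were kept in RPMI medium with 2% FBS. They gave 4 libraries of 1 treatment each: no addition, CXCL12 protein, GSK690693 (an inhibitor of the kinase AKT), or both agents. Fresh control cells were sorted on the same 2 markers from virgin mice that carry a Cre allele and are labelled wild type controls, with 2 LysM-Cre control (genotype LysmCre+) and 2 K8-Cre control (genotype K8Cre+) libraries, each pair numbered repeat 1 and repeat 2. LysM-Cre recombines in myeloid cells and is inserted in the lysozyme gene Lyz2, while K8-Cre recombines in luminal epithelial cells. Another 7 libraries of freshly sorted macrophages were used only to set values beside the calls: 4 knockouts (LysM-Cre Cxcr4 knockout and K8-Cre Cxcl12 knockout, 2 each) and 3 wild type libraries sorted by surface CXCR4 (2 positive, 1 negative). The time in culture, and whether libraries came from separate mice, are not given in the sources used here.

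Tissue macrophages depend on signals of their niche: colony-stimulating factor 1 keeps them alive, and the identity genes of a resident macrophage are maintained by the tissue around it. In the mammary gland they lie along ducts and in the fat pad, next to vessels whose endothelial cells and pericytes carry their own well-known genes. Dissociation and plating can induce stress and cytokine genes in myeloid cells, and plated preparations keep the cells that attach.

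Levels are given as CPM, read counts per gene scaled to 1 common library total, in the order untreated, CXCL12, AKT inhibitor and both for cultured libraries, and in the order LysM-Cre control 1 and 2, K8-Cre control 1 and 2 for fresh ones. The 2 tables were normalized separately and made with different gene annotations, so no test was run between them and no p-value is given. A gene was called apart where the lowest library of one side lay at least 4-fold above the highest of the other on the scale of CPM + 1, that is, at a gap of 2 or more on log2(CPM + 1). Of 12523 shared genes, 10697 had at least 1 CPM in at least 4 of the 8 libraries. Among these 10697, 158 were called higher in cultured cells (1.48%) and 63 lower (0.589%). Without K8-Cre control 2 the higher calls were 371, and without the cultured CXCL12 library the lower calls were 110. At the weaker mark of no overlap between the sides, 1489 genes (13.9%) lay wholly above and 929 (8.68%) wholly below. Genes just inside and outside the 4-fold mark were Btnl9 (gap 2.03) and, just short of the mark, Atp6v0d2 on the higher side, and Nup210 (-2.01) and, just short, Wdfy4 on the lower side. Culture, wild type against Cre genotype, deposited table and annotation changed together between the sides, and cannot be told apart.

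Spread inside each side set what could be called. Within the cultured side, whose 4 libraries had 4 different treatments, 44.5% of the genes ranged over at least 4-fold, and within the fresh control side 60.8% did. Without the library with both agents, 2634 genes ranged that widely within the cultured side, against 4758 with it. The 2 fresh libraries of repeat 2 differed at least 4-fold in 9.84% of genes, but the 2 of repeat 1 in 35.1%. The 2 LysM-Cre controls did so in 30.6% and the 2 K8-Cre controls in 36.6%. Depth read from the step between low values was 14322544 to 29044438 reads in the cultured and 8602151 to 37230082 reads in the fresh control libraries. Genes listed at 0 made up 12.4% to 30.9% of the table in cultured libraries, and 8.31% to 37.0% in fresh control libraries, with both repeat 1 libraries above 30%. Small noncoding RNAs took 3.47% to 4.45% of CPM in cultured and 5.20% to 19.3% in fresh control libraries, and the median gene stood 0.18 higher in cultured cells on the log2 scale.

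The label macrophage was checked first. All 8 pan-macrophage markers, Adgre1, Itgam, Csf1r, Ptprc, Cd68, Tyrobp, Fcer1g and Spi1, were above 0 in all 8 libraries. Their geometric mean was 93.2, 103, 114 and 104 CPM in the cultured libraries, against 410, 247, 238 and 314 CPM in the fresh control libraries, so it was lower in every cultured library. Adgre1, which encodes the sorted antigen F4/80, had 149, 240.0, 175 and 228 CPM in the cultured libraries, against 408, 627, 470.1 and 702 CPM in the fresh control libraries. Itgam, the gene of the other sorted antigen CD11b, had 198, 207, 174 and 167 CPM in the cultured libraries, against 276, 243, 298 and 252 CPM in the fresh control libraries. For both genes the sides did not overlap, but the gap was narrow for Itgam, at -0.23 on the log2 scale. Csf1r, the receptor for colony-stimulating factor 1, had 234, 173, 219 and 351 CPM in the cultured libraries, against 1039, 479.6, 621 and 638 CPM in the fresh control libraries.

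Endothelial genes, which that label does not name, stood furthest above the fresh side of all lists. On the endothelium list, markers of the cells that line vessels, all 10 genes were higher on average in cultured libraries, 9 of 10 lay wholly above the fresh control libraries (13.9% of all genes) and 6 of 10 were called (1.48% of all genes), with a median difference of 5.19 on log2(CPM + 1) against 0.18 for all genes. Summed, the 10 genes reached 2297 to 3282 CPM in cultured libraries and 62.3 to 283 CPM in fresh control libraries. In bulk RNA, fewer or more cells of a type and less or more of its RNA per cell cannot be told apart.

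Pecam1, the endothelial junction protein CD31, had 516, 415, 461 and 530.1 CPM in the cultured libraries, against 2.20, 24.6, 0.587 and 37.6 CPM in the fresh control libraries. VE-cadherin, encoded by Cdh5 and the adhesion molecule that defines endothelial junctions, had 697, 678, 869 and 774 CPM in the cultured libraries, against 70.9, 16.9, 0.116 and 47.6 CPM in the fresh control libraries. The VEGF receptor gene Flt1 had 606, 442, 767 and 635 CPM in the cultured libraries, against 4.88, 21.95, 4.30 and 57.5 CPM in the fresh control libraries. Every cultured library was thus high for all 3 genes, while fresh control levels varied widely and were lowest in K8-Cre control 1. The differences in mean log2 level were 5.83 (SD 0.16 in cultured and 2.25 in fresh libraries, n = 4 each) for Pecam1, 5.53 for Cdh5 and 5.40 for Flt1. Tek, the receptor of angiopoietins, the sialomucin gene Emcn and the tight junction gene Cldn5 were the other called members. Kdr, the main VEGF receptor of endothelium, lay wholly above without a call, with 142 to 366 CPM in cultured and 0 to 53.02 CPM in fresh control libraries. Egfl7 was the member whose sides overlapped, with 11.4 to 50.3 CPM in cultured and 0 to 16.2 CPM in fresh control libraries.

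A second set of 23 endothelial genes was chosen after values had been seen and is therefore only descriptive. It gave 14 calls among the 22 above the level filter, against 1.48% of all genes. Its widest gap was at Sele, E-selectin, which activated endothelium displays to capture leukocytes and which is nearly absent from resting vessels. Sele had 246, 214, 376 and 276 CPM in the cultured libraries, against 0, 1.74, 0 and 0.0269 CPM in the fresh control libraries. Its gap of 6.29 was the widest among the 158 higher genes, and it stood at 0.174 to 12.3 CPM in the 7 other fresh libraries. Selp, P-selectin, had 1413, 1158, 2517 and 1851 CPM in the cultured libraries, against 79.9, 7.25, 9.998 and 15.6 CPM in the fresh control libraries. Vcam1, which activated endothelium and some macrophages both express, overlapped, with 90.6 to 245 CPM in cultured and 98.5 to 297 CPM in fresh control libraries. Endothelial transcription factors were among the calls, with Sox7 at 211 to 383 CPM in cultured and 0 to 12.6 CPM in fresh control libraries and Bcl6b at 49.7 to 88.6 CPM in cultured and 0 to 2.36 CPM in fresh control libraries. Ackr1, the chemokine-binding receptor of venules, had 73.3 to 143 CPM in cultured and 0 to 8.96 CPM in fresh control libraries.

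Genes of pericytes, the mural cells that wrap capillaries, were high in the same libraries. Rgs5, a regulator of G-protein signalling typical of pericytes, had 348, 422, 453 and 394 CPM in the cultured libraries, against 48.2, 18.7, 0.349 and 31.3 CPM in the fresh control libraries. Notch3, the mural Notch receptor, had 255, 262, 396 and 246 CPM in the cultured libraries, against 16.8, 5.61, 12.2 and 36.2 CPM in the fresh control libraries. Those 2 were called among 6 tested genes of a list also chosen after values were seen, against 1.48% of all genes. Pdgfrb overlapped with 7.05 to 73.4 CPM in cultured and 0.447 to 19.7 CPM in fresh control libraries. The low cultured value belonged to the library with both agents. In 5 tested lymphatic endothelial genes, also chosen after values were seen, no call was made. Of these 5, 2 lay wholly above (40.0%, against 13.9% of all genes), with a median difference of 1.75. Fabp4, which both adipocytes and capillary endothelium express, had 346, 329.9, 407 and 314 CPM in the cultured libraries, against 0.565, 33.6, 38.2 and 124 CPM in the fresh control libraries. Of 8 adipocyte genes, 5 lay wholly above (62.5%, against 13.9% of all genes) and none was called. The adipocyte hormone gene Adipoq had 0.559 to 30.5 CPM in cultured and 0 to 1.42 CPM in fresh control libraries. Of 11 tested fibroblast genes and 10 tested luminal epithelial genes none lay wholly on one side, and the luminal sum was 324 to 482 CPM in cultured and 203 to 382 CPM in fresh control libraries. Of 7 tested basal epithelial genes, 3 (Tagln, Mylk and Pdpn) lay wholly above, which is 42.9% against 13.9% of all genes. The list median was 1.55, with sums of 276 to 342 CPM in cultured and 45.7 to 151 CPM in fresh control libraries. Tagln and Mylk are contractile genes that mural cells also express, and Pdpn is also a lymphatic endothelial gene.

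**Figure D1:**
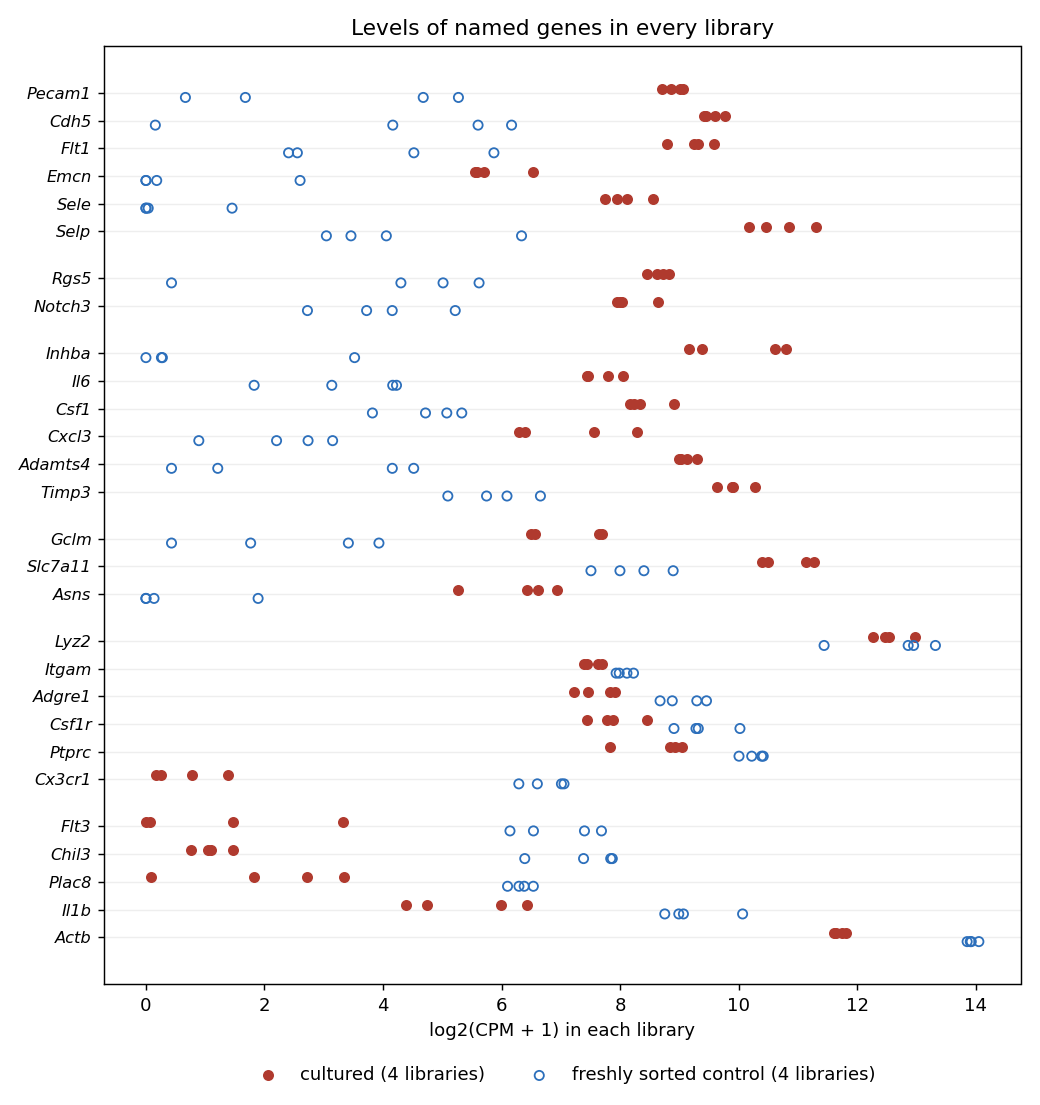
Level of 28 named genes in each library on a log2(CPM + 1) scale, with filled points for the 4 cultured libraries and open points, drawn under them, for the 4 freshly sorted control libraries. Endothelial, pericyte, secreted and stress genes lie to the right in cultured libraries, Lyz2 overlaps, and Cx3cr1, Flt3, Chil3 and Plac8 lie far to the left.

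The 7 freshly sorted libraries that had no part in the calls gave a further comparison. The same 4 cultured libraries entered this comparison and the calls, so the counts describe the fresh side and are no independent check. All 6 called genes of the endothelium list were also apart by at least 4-fold from all 11 fresh libraries, against 88 of 152 listed higher calls. Higher calls described below that fell short of this mark were Asns (gap 1.80), Csf1 (1.77), Cxcl3 (1.77), Mcam (1.67), Ebf1 (1.54), Bdkrb2 (1.23), Gclm (1.15) and Csf3 (0.57). The endothelium sum was 62.7 to 237 CPM in knockout and 142 to 211 CPM in CXCR4-sorted libraries, inside the range of the fresh controls. Over all calls, 99 of 158 higher genes (62.7%) were also at least 4-fold above the knockout libraries, and 104 of the 152 listed there (68.4%) above the CXCR4-sorted ones. For the calls made without K8-Cre control 2, these shares were 34.2% and 40.3%. Of the lower calls, 36 of 63 (57.1%) were also apart from knockout and 18 of 63 (28.6%) from CXCR4-sorted libraries. From all 11 fresh libraries, 14 of 63 were apart. Lower calls named below that fell short were Rab30 (-1.997), Il1b (-1.97), Rpl19 (-1.69), Apol7c (-1.48), Clec10a (-1.46) and Actb (-1.16). Further short were Lsp1 (-0.64), Chil3 (-0.53) and St8sia1 (-0.48), while Flt3, Plac8 and Alox15 overlapped (gap 0).

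**Figure D2:**
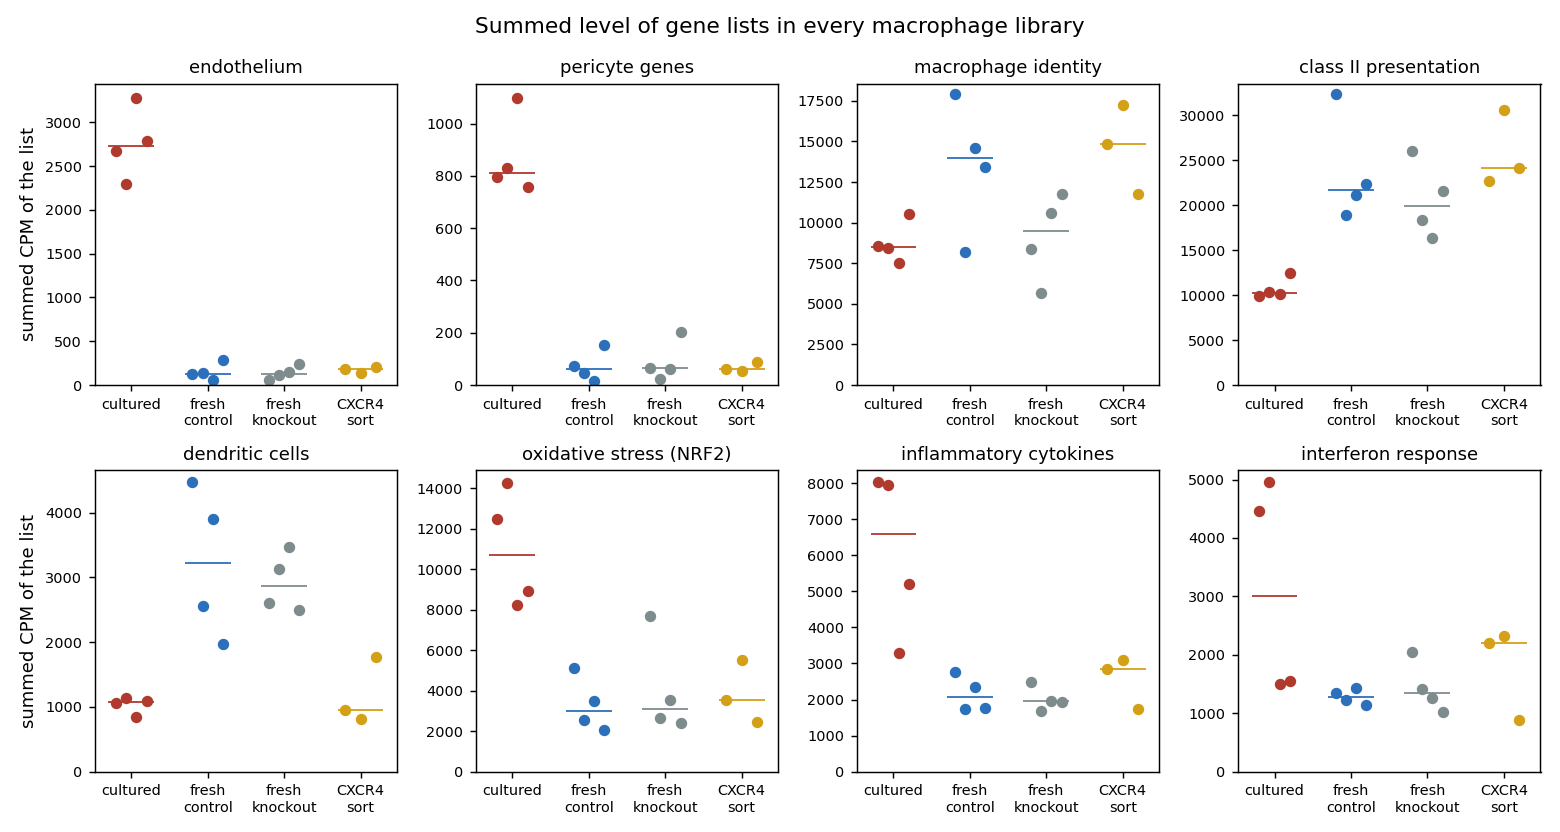
Summed CPM of 8 gene lists in every macrophage library, with cultured libraries at the left of each panel, then fresh control, fresh knockout and CXCR4-sorted ones; points are libraries and lines are medians. The endothelium and pericyte sums are high in the 4 cultured libraries alone, whereas the sums of macrophage identity genes overlap.

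Several higher calls with the widest gaps are genes of no list but the ranking. Pcdh1, a protocadherin of cell contacts, had 131, 119.8, 183 and 198 CPM in the cultured libraries, against 0.141, 0.0497, 0.116 and 5.08 CPM in the fresh control libraries. Rgs16, a regulator of G-protein signalling, had 146, 129.6, 188 and 207 CPM in the cultured libraries, against 0.564, 6.26, 0.315 and 7.20 CPM in the fresh control libraries, and its relative Rgs4 had 108 to 163 CPM in cultured and 0 to 5.61 CPM in fresh control libraries. Both stood apart in every cultured library. Mcam, the adhesion molecule CD146 of endothelium and pericytes, had 29.2 to 59.6 CPM in cultured and 0.116 to 0.483 CPM in fresh control libraries, and Bdkrb2, a bradykinin receptor, had 21.6 to 63.4 CPM in cultured and 0 to 0.161 CPM in fresh control libraries. Named after their values were seen, Ets1, a transcription factor of endothelium and lymphocytes, had 981, 835, 1107 and 876 CPM in the cultured libraries, against 106, 133, 116 and 95.5 CPM in the fresh control libraries, and Osmr, the oncostatin M receptor that fibroblasts and endothelium carry, had 377, 429, 554 and 462 CPM in the cultured libraries, against 1.34, 13.96, 1.74 and 36.8 CPM in the fresh control libraries. Cav1, the caveolae protein, had 438 to 551 CPM in cultured and 2.09 to 88.8 CPM in fresh control libraries. Ebf1, a B cell factor that adipocyte and mural cell lineages share, was called higher at 133 to 177 CPM in cultured and 5.01 to 29.6 CPM in fresh control libraries, whereas the B cell factor Pax5 lay wholly below, at 0 to 7.20 CPM in cultured and 12.7 to 95.6 CPM in fresh control libraries.

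Among secreted factors the cultured side had its largest difference at Inhba, which encodes the activin A subunit and lies at chr13:16011851-16031621 on the plus strand of GRCm38. Inhba had 1558, 1771, 571 and 669 CPM in the cultured libraries, against 0.212, 0.199, 0 and 10.5 CPM in the fresh control libraries. The difference in mean log2 level was 8.97 (SD 0.83 in cultured and 1.68 in fresh libraries, n = 4 each), and the lowest cultured library was far above the highest of all 11 fresh libraries, which reached 11.1 CPM. Of 17 tested growth factor genes it was the only call, against 1.48% of all genes called higher. The 3 others wholly above were Pdgfa, Pdgfb and Hbegf. In all, 4 of 17 lay wholly above (23.5%, against 13.9% of all genes). Vegfa overlapped, with 237 to 335 CPM in cultured and 199 to 430.3 CPM in fresh control libraries.

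Cytokine genes lay on both sides. Il6, which macrophages and activated vascular cells both make, had 220.4, 264, 172 and 175 CPM in the cultured libraries, against 2.54, 17.7, 7.79 and 16.9 CPM in the fresh control libraries. Csf1, the macrophage growth factor itself, had 320.4, 286, 482 and 299.8 CPM in the cultured libraries, against 25.3, 32.7, 13.1 and 39.2 CPM in the fresh control libraries. Csf3, the granulocyte growth factor gene, had 107, 72.3, 28.7 and 11.2 CPM in the cultured libraries, against 0.141, 0, 0 and 1.58 CPM in the fresh control libraries. These 3 of 17 inflammatory cytokine genes were called higher, against 1.48% of all genes. Il1b, the gene of interleukin 1 beta, was the 1 member called lower, against 0.589% of all genes. It had 62.5, 84.9, 19.9 and 25.7 CPM in the cultured libraries, against 1071, 431, 536 and 508 CPM in the fresh control libraries. Il1rn, which encodes the natural antagonist of interleukin 1 receptors, had 5646, 5089, 2023 and 3892 CPM in the cultured libraries, against 394, 431, 521 and 459 CPM in the fresh control libraries. It missed the mark narrowly, at a gap of 1.96, in the direction opposite to Il1b. Tnf and Il1a overlapped between the sides. Vessel genes were high in the same 4 libraries, as their sums show, and their part in the cytokine, growth factor, chemokine and matrix values was not tested.

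Chemokine genes of the CXC family stood mostly higher, with 5 of 8 wholly above (62.5%, against 13.9% of all genes). Cxcl3, a neutrophil attractant, was called at 187, 309.5, 83.6 and 77.8 CPM in the cultured libraries, against 5.66, 7.87, 0.856 and 3.61 CPM in the fresh control libraries. Cxcl12, the ligand that the study is about and a product mainly of stromal and vascular cells, was wholly above without a call, with 277, 218, 282 and 443 CPM in the cultured libraries, against 24.3, 48.1, 11.7 and 149 CPM in the fresh control libraries. Its receptor gene Cxcr4 overlapped, with 184, 139, 175 and 379 CPM in the cultured libraries, against 819, 318, 564 and 337 CPM in the fresh control libraries, and the second CXCL12 receptor Ackr3 had 17.6 to 73.6 CPM in cultured and 1.51 to 10.9 CPM in fresh control libraries. CC chemokines divided evenly, 3 of 11 wholly above and 3 wholly below (27.3% each, against 13.9% and 8.68% of all genes). Ccl22, an attractant made by dendritic cells, was lower at 59.2 to 131 CPM in cultured and 506 to 1093 CPM in fresh control libraries.

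Calls among matrix-modifying genes were on the higher side. Timp3, a matrix-bound inhibitor of metalloproteinases, had 942, 796, 1242 and 960.0 CPM in the cultured libraries, against 33.1, 52.7, 67.2 and 99.8 CPM in the fresh control libraries. Outside the list, the aggrecanase gene Adamts4 had 631, 522, 509 and 556 CPM in the cultured libraries, against 21.9, 16.8, 0.349 and 1.32 CPM in the fresh control libraries. The related protease genes Adamts1, which is on the list, and Adamts9, which is not, were called higher too. Tll1, a tolloid protease, had 47.5 to 108 CPM in cultured and 0.0707 to 0.51 CPM in fresh control libraries. The gelatinase gene Mmp9 went the other way without a call, at 3.41 to 25.1 CPM in cultured and 29.3 to 110.1 CPM in fresh control libraries. Vascular basement membrane genes, named after values were seen, included Col4a1 at 396 to 649.7 CPM in cultured and 4.38 to 66.2 CPM in fresh control libraries and the perlecan gene Hspg2 at 501 to 849 CPM in cultured and 6.16 to 91.8 CPM in fresh control libraries. The same holds for Yap1, a transcriptional coactivator of adherent cells, with 182, 204, 198 and 205 CPM in the cultured libraries, against 1.06, 1.79, 1.51 and 19.2 CPM in the fresh control libraries, and its partner Wwtr1 with 344 to 707 CPM in cultured and 1.51 to 50.6 CPM in fresh control libraries. Adhesion and cytoskeleton genes lay on both sides, 6 of 27 wholly above (22.2%, against 13.9% of all genes), 7 wholly below (25.9%, against 8.68%) and a median of -0.02. Those above included Vcl, vinculin, at 392 to 469 CPM in cultured and 57.2 to 103 CPM in fresh control libraries and Itgav at 654 to 1010.2 CPM in cultured and 70.5 to 247 CPM in fresh control libraries.

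Of the antioxidant genes of the NRF2 program, 10 of 20 tested lay wholly above (13.9% of all genes) and 1 lay below (8.68% of all genes). The median difference was 1.17, and 1 was called higher, against 1.48% of all genes. Gclm, the regulatory subunit of the enzyme that limits glutathione synthesis, was the call, with 199.6, 205, 93.8 and 89.6 CPM in the cultured libraries, against 2.40, 14.3, 0.349 and 9.67 CPM in the fresh control libraries. Slc7a11, the cystine importer that feeds that pathway, had 2258, 2465, 1442 and 1349 CPM in the cultured libraries, against 475, 337, 255 and 181 CPM in the fresh control libraries. Hmox1, heme oxygenase 1, had 3458, 4280.0, 1907 and 2416 CPM in the cultured libraries, against 1209, 451, 831 and 309 CPM in the fresh control libraries. All 3 were lower in the 2 libraries with AKT inhibitor than in the 2 without, yet above every fresh control library. Metallothioneins Mt1 and Mt2, which answer to zinc, overlapped between the sides.

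In the same way, 10 of 22 unfolded protein and ATF4 response genes lay wholly above (45.5%, against 13.9% of all genes) and 3 below (13.6%, against 8.68%), with a median of 1.12. Asns, asparagine synthetase, was called at 121, 85.6, 97.2 and 37.6 CPM in the cultured libraries, against 0, 0.0993, 0 and 2.71 CPM in the fresh control libraries. Trib3, a stress-induced pseudokinase under ATF4, had 6.01 to 21.4 CPM in cultured and 0 to 1.85 CPM in fresh control libraries, and Slc7a5, an importer of large neutral amino acids, had 196 to 232 CPM in cultured and 40.8 to 100.3 CPM in fresh control libraries. Chaperones of the endoplasmic reticulum did not share this, since Hspa5 overlapped with 708 to 1039 CPM in cultured and 661 to 1906 CPM in fresh control libraries and Hsp90b1 lay just below.

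The promoters of one vascular and one antioxidant call are shown because motifs of stress-responsive factors were searched in them. They are RefSeq windows of 300 bases on GRCm38.p6, from 250 bases before to 50 after the start of the gene, with Sele at chr1:164047984-164048283 and Gclm at chr3:122245307-122245606, both on the plus strand. Capitals mark an AP-1 site (TGANTCA) in Sele and an antioxidant response element core (TGACNNNGC, here on the opposite strand) in Gclm.
Sele: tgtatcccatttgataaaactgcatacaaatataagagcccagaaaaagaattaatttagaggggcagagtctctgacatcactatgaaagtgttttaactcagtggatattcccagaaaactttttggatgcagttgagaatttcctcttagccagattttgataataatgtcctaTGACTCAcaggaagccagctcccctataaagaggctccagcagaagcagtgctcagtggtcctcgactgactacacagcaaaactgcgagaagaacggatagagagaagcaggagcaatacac
Gclm: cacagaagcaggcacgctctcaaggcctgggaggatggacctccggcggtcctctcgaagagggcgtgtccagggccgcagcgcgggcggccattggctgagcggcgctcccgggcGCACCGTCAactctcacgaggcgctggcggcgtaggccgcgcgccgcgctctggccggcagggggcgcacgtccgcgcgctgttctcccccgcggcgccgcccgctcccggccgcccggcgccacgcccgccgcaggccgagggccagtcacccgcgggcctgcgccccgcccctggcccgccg
The Sele match begins at base 178 and the Gclm match at base 117, counted from the 5′ end of the window. Both motifs were searched on both strands in the first window listed for each gene, which 116 of the 158 higher and 49 of the 63 lower genes had. TGANTCA stood in 10 of 116 higher (8.62%) and 1 of 49 lower genes (2.04%), against 457 of 8550 tested genes (5.35%) and 7.93% of all 27025 promoters. TGACNNNGC stood in 12 of 116 higher (10.3%) and 4 of 49 lower genes (8.16%), against 15.1% of tested genes. The zinc-responsive core TGCNCNC and the hypoxia core ACGTG occurred in 65.5% and 22.4% of higher genes, against 59.4% and 25.95% of tested genes. A TGACTCA followed by GC fits both of the first pair of motifs. A match describes letters in the window and no bound factor.

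Macrophage genes were mostly lower, in modest amounts. Of 19 macrophage identity genes, 12 lay wholly below (8.68% of all genes) and none wholly above, with a median difference of -1.49. But a single one was called lower (2 without LysM-Cre control 2), against 0.589% of all genes. That gene was Cx3cr1, the fractalkine receptor of tissue macrophages and patrolling monocytes, at chr9:119901616-120069879 on the minus strand of GRCm38. Cx3cr1 had 0.189, 0.723, 1.61 and 0.125 CPM in the cultured libraries, against 96.2, 77.3, 132 and 128 CPM in the fresh control libraries. Its level was 30.8 to 190.1 CPM in the 7 other fresh libraries, so it separated the cultured cells from all 11. Lyz2, the lysozyme gene of myeloid cells, overlapped, with 5952, 5681, 4941 and 8034 CPM in the cultured libraries, against 10226, 2780.2, 7922 and 7433 CPM in the fresh control libraries, and the LysM-Cre controls carry the Cre insertion in this gene. Cd14, a co-receptor for lipopolysaccharide, overlapped as well, at 535 to 756 CPM in cultured and 357 to 997 CPM in fresh control libraries. Signalling adaptors of myeloid receptors lay further down, with Tyrobp at 5.86 to 34.4 CPM in cultured and 103 to 223 CPM in fresh control libraries and Fcer1g at 36.8 to 128 CPM in cultured and 253 to 615 CPM in fresh control libraries.

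Genes of the resident stromal macrophages followed the same course, 10 of 20 wholly below (50.0%, against 8.68% of all genes) and a median of -1.69. Selenop, the selenium carrier that such macrophages express, had 543, 494, 605 and 485 CPM in the cultured libraries, against 2268, 3164, 2018 and 3005 CPM in the fresh control libraries. The mannose receptor gene Mrc1 had 243 to 289 CPM in cultured and 627 to 1072 CPM in fresh control libraries, and Pf4, platelet factor 4, had 1.43 to 19.9 CPM in cultured and 69.2 to 133 CPM in fresh control libraries. The list sum was 1635 to 2109 CPM in cultured and 4093 to 6712 CPM in fresh control libraries. It was 635 CPM in the fresh CXCR4-negative library, below all cultured ones, and 15295 to 16418 CPM in the CXCR4-positive ones. Lyve1 and Folr2 overlapped. The part of the vessel genes in these lower shares of CPM was not tested. The marker scaling given further on uses no vessel gene and cannot test it. In contrast Ednrb, an endothelin receptor, lay just above, at 276 to 559 CPM in cultured and 96.7 to 269 CPM in fresh control libraries.

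On the CPM scale antigen presentation genes were lower without a call. Of 11 class II genes, 8 lay wholly below (72.7%, against 8.68% of all genes), with a median difference of -1.25. On the scale of macrophage markers, which raises all cultured values against fresh ones, that median was 0.22. The endothelium sum was higher in the same 4 cultured libraries, and its part in the lower class II values was not tested. The invariant chain gene Cd74 had 1638, 1444, 1724 and 1757 CPM in the cultured libraries, against 8306, 3893, 5061 and 5419.7 CPM in the fresh control libraries. H2-Aa, a class II chain, had 4836, 5152, 4609.5 and 5797 CPM in the cultured libraries, against 12106, 9016, 8021 and 9802 CPM in the fresh control libraries. Both remained among the abundant transcripts of cultured cells. Ciita, the master regulator of class II genes, had 11.3 to 53.5 CPM in cultured and 145 to 267 CPM in fresh control libraries, and the co-stimulator Cd86 overlapped.

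Dendritic cell genes had the lowest median of the lists with at least 5 tested members, -2.64, with 8 of 14 wholly below (57.1%, against 8.68% of all genes). Flt3, the growth factor receptor of dendritic cells, was called, with 0.0473, 1.76, 9.01 and 0 CPM in the cultured libraries, against 205, 91.9, 168 and 69.6 CPM in the fresh control libraries. In the 7 other fresh libraries Flt3 ranged over 0.441 to 187 CPM, which overlaps the cultured range. Fscn1, the actin bundler of mature dendritic cells, had 71.4, 94.8, 137 and 97.8 CPM in the cultured libraries, against 1498, 534, 1118 and 536 CPM in the fresh control libraries, and the migration receptor Ccr7 had 34.8 to 81.1 CPM in cultured and 118 to 801 CPM in fresh control libraries. Irf4, a transcription factor of macrophages and dendritic cells, was the exception, with 590.4, 588, 413 and 587 CPM in the cultured libraries, against 123, 273, 133 and 174 CPM in the fresh control libraries. The list sum was 839 to 1133 CPM in cultured, 1969 to 4468 CPM in fresh control and 814 to 1767 CPM in CXCR4-sorted libraries. The cultured cells thus stood below the fresh controls but among the CXCR4-sorted cells in this sum.

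Monocyte genes gave 2 lower calls among 14, against 0.589% of all genes. Chil3, the chitinase-like lectin Ym1 of monocytes and alternatively activated macrophages, lies at chr3:106147554-106167564 on the minus strand of GRCm38 and had 1.14, 1.76, 0.698 and 1.06 CPM in the cultured libraries, against 228, 82.9, 166 and 233 CPM in the fresh control libraries. In the 2 CXCR4-positive libraries Chil3 was 2.99 and 15.0 CPM, well below the fresh controls too. Plac8, a gene of inflammatory monocytes, had 2.55, 9.09, 5.59 and 0.0624 CPM in the cultured libraries, against 82.4, 67.6, 77.4 and 91.8 CPM in the fresh control libraries. It stood at 8.09 to 187 CPM in the 7 other fresh libraries, which overlaps the cultured range. The monocyte chemokine receptor Ccr2 was wholly below at 92.5 to 140.2 CPM in cultured and 276 to 1004 CPM in fresh control libraries. Retnla, a resistin-like product of alternatively activated macrophages, overlapped, with 1178, 1223, 1258 and 1595 CPM in the cultured libraries, against 1946, 1847, 1266 and 1529.7 CPM in the fresh control libraries, while Clec10a, a galactose lectin of the same state, was called lower at 12.2 to 36.4 CPM in cultured and 163 to 379 CPM in fresh control libraries.

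Of the 63 lower calls, 8 were on a gene list. Most of the 10697 tested genes are on no list either, since the 42 lists hold 774 memberships. H2-M2, a nonclassical class I gene, had 0.568, 0.448, 0 and 1.37 CPM in the cultured libraries, against 141, 194, 57.4 and 166 CPM in the fresh control libraries. Apol7c, an apolipoprotein L gene, had 3.69, 22.9, 0 and 0.125 CPM in the cultured libraries, against 336, 767, 687 and 354 CPM in the fresh control libraries. Both were far apart in all 8 libraries. Rab30, St8sia1 and B4galnt1 were at or near 0 in cultured libraries and had 34.1 to 107, 29.99 to 76.03 and 51.5 to 242 CPM in that order in fresh control libraries. Lsp1, a leukocyte actin-binding protein, had 28.3 to 49.9 CPM in cultured and 293 to 608 CPM in fresh control libraries, and Dnase1l3, a nuclease that macrophages and dendritic cells secrete, had 3.50 to 22.9 CPM in cultured and 139.9 to 194 CPM in fresh control libraries; these 2 were named after their values were seen. Gm8797, a predicted gene, had the widest gap below, -6.62, with 0.183 to 12.03 CPM in cultured and 1285 to 2235 CPM in fresh control libraries, and an effect of the differing annotations on it was not tested.

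Actb, beta-actin, was called lower with little spread on either side, at 3581, 3448, 3121 and 3179 CPM in the cultured libraries, against 16992, 15549, 15363 and 14816 CPM in the fresh control libraries. The closely related Actg1 overlapped, with 1388 to 2657 CPM in cultured and 1825 to 2899 CPM in fresh control libraries, and reads shared between these near-identical genes make their division uncertain. Cytosolic ribosomal protein genes had 11 of 30 wholly below (36.7%, against 8.68% of all genes) and a median of -1.32, although Rpl13 was called higher and Rpl19 lower. These genes have many processed copies, so single members are uncertain. Their sum was 1588 to 2035 CPM in cultured and 3016 to 6519 CPM in fresh control libraries. The fresh CXCR4-positive library 1 had 1753 CPM, inside the cultured range. Mitochondrially encoded transcripts ran higher, 6 of 13 wholly above (46.2%, against 13.9% of all genes). They made up 2.32% to 3.26% of CPM in cultured and 0.842% to 2.10% in fresh control libraries. The fresh K8-Cre Cxcl12 knockout library 1 had 2.58%, inside the cultured range.

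Lipid, lysosome and glucose genes lay on both sides. Of 21 lipid handling genes, 6 lay wholly above (28.6%, against 13.9% of all genes) and 3 below (14.3%, against 8.68%). Cd36, the fatty acid and oxidised lipoprotein receptor of macrophages, capillaries and adipocytes, had 3534, 3675, 2529 and 2799 CPM in the cultured libraries, against 508, 864, 390.3 and 1166 CPM in the fresh control libraries. Spp1, osteopontin, was higher at 79.7 to 145 CPM in cultured and 0 to 38.6 CPM in fresh control libraries, while Apoe, the lipid carrier of macrophages, was lower at 77.5 to 98.04 CPM in cultured and 151 to 1033 CPM in fresh control libraries. Of 29 lysosome genes 7 lay above and 7 below (24.1% each, against 13.9% and 8.68% of all genes). Atp6v0d2, a proton pump subunit of macrophages and osteoclasts, had 47.6, 55.9, 61.4 and 141 CPM in the cultured libraries, against 0, 5.81, 0 and 11.2 CPM in the fresh control libraries, and came just short of a call. The lysosomal proteases differed among themselves, with Ctsb above at 1655 to 1896 CPM in cultured and 1027 to 1606 CPM in fresh control libraries and Ctss, which processes the invariant chain, below at 111 to 217 CPM in cultured and 456 to 736 CPM in fresh control libraries. Slc2a1, the glucose transporter GLUT1, had 591, 479.6, 329 and 479 CPM in the cultured libraries, against 123, 62.8, 15.5 and 59.3 CPM in the fresh control libraries, and 5 of 23 glycolysis and hypoxia genes lay above (21.7%, against 13.9% of all genes) with 2 below (8.70%, against 8.68%), shares near those of all genes.

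Of 21 complement and efferocytosis genes, 8 lay wholly below (38.1%, against 8.68% of all genes) and the median difference was -1.24. On the scale of macrophage markers, which raises all cultured values against fresh ones, that median was 0.19. The summed level of the list, to which Cd36 contributes most in cultured cells, was 4249 to 5379.7 CPM in cultured and 3041 to 4734 CPM in fresh control libraries. C1qb, a chain of the recognition protein C1q, had 53.3, 80.4, 49.3 and 126 CPM in the cultured libraries, against 409.8, 238, 226 and 363 CPM in the fresh control libraries. Of 18 Toll-like and Fc receptor genes, 6 lay wholly below (33.3%, against 8.68% of all genes). Fcgr2b, the inhibitory antibody receptor, had 52.1 to 150.2 CPM in cultured and 185 to 357 CPM in fresh control libraries, and Tlr8, a sensor of RNA, had 0.249 to 17.97 CPM in cultured and 34.5 to 100.2 CPM in fresh control libraries. Among lineage transcription factors 5 of 26 lay above and 5 below (19.2% each, against 13.9% and 8.68% of all genes). Pparg, which directs lipid genes in adipocytes and some macrophages, had 47.7, 36.7, 63.7 and 118 CPM in the cultured libraries, against 3.11, 8.84, 0.233 and 13.8 CPM in the fresh control libraries, and Irf8, a factor of monocytes and dendritic cells, had 40.6, 27.4, 41.3 and 38.5 CPM in the cultured libraries, against 247, 129, 97.2 and 106 CPM in the fresh control libraries. Rgs2, a regulator of G-protein signalling on the list of the CXCL12 and CXCR4 axis, was lower without a call, at 65.5, 64.1, 39.7 and 47.1 CPM in the cultured libraries, against 518, 231, 678 and 234 CPM in the fresh control libraries. On that list 3 of 14 genes lay above (21.4%, against 13.9% of all genes) and 6 below (42.9%, against 8.68%).

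**Figure D3:**
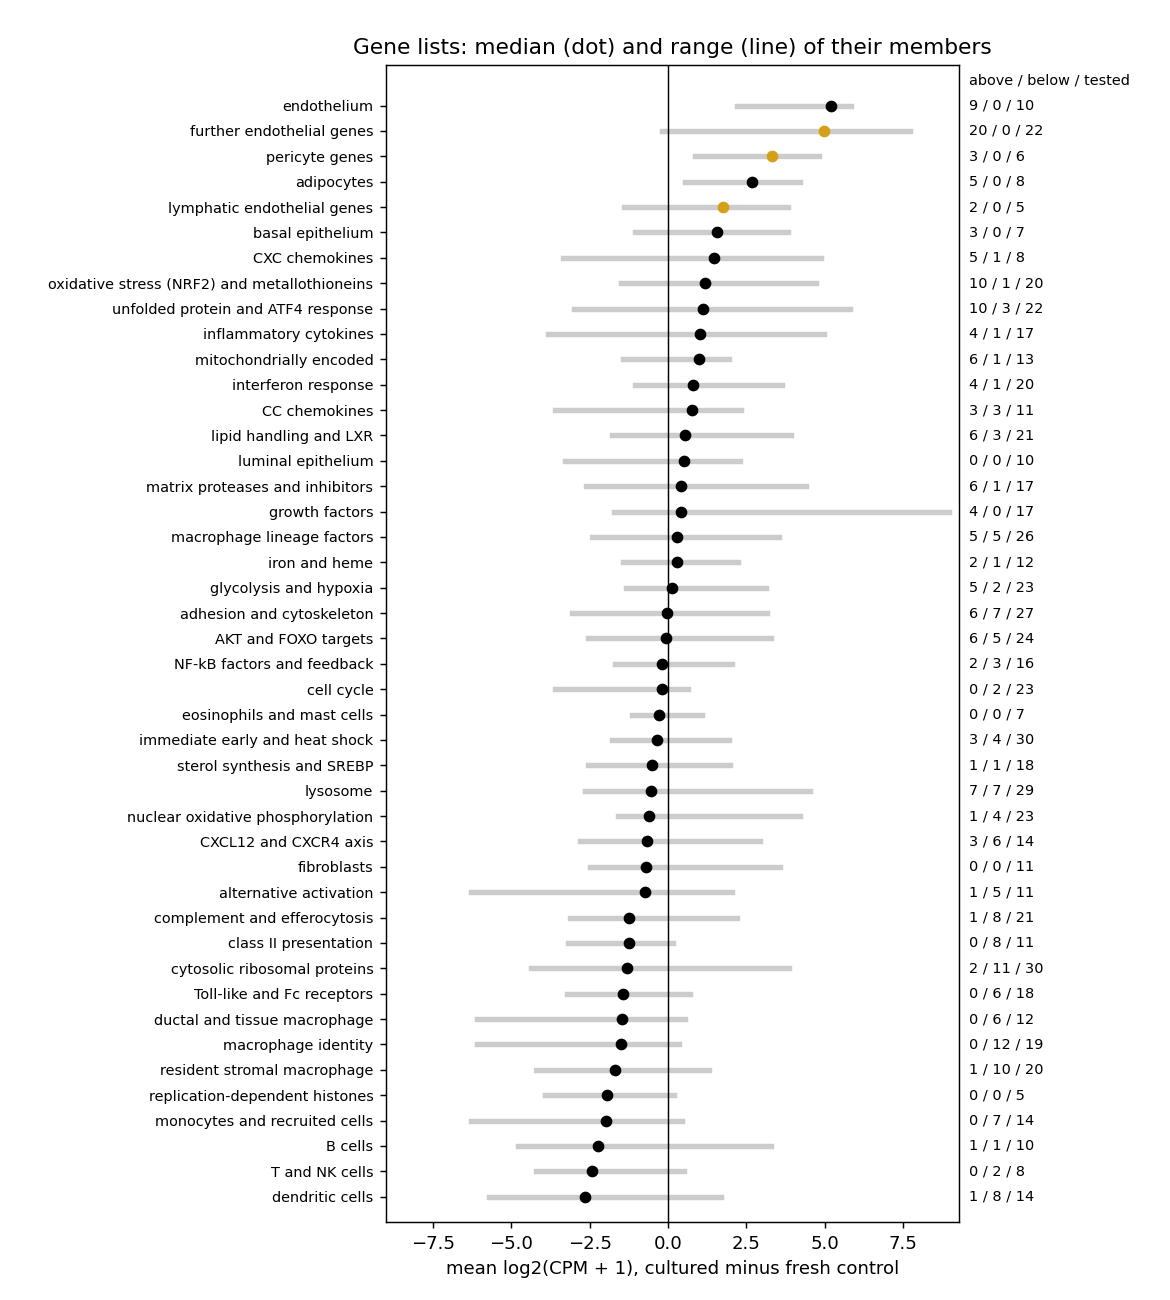
Difference in mean log2(CPM + 1), cultured minus fresh control, for each gene list with at least 5 tested members; the dot is the median, the line spans the lowest to the highest member, and the figures at the right count members wholly above, wholly below and tested. Lists with gold dots were chosen after values were seen; endothelium leads at 5.19 and dendritic cells close the order at -2.64.

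A change of scale altered how the 2 directions balanced. With each library scaled to its 8 pan-macrophage markers, an alternative chosen after seeing the data, the median gene moved to 1.49 higher in cultured cells, and 98.7% of the calls were higher against 71.5% on the CPM scale. The marker mean was lower in every cultured than in every fresh control library, so this scaling raises all cultured values against fresh ones. Higher calls are therefore kept by construction, and the gaps of lower calls can only shrink. All 158 higher calls were kept on that scale, and 10 of the 63 lower ones: Abcd2, Alox15, B4galnt1, Chil3, Cx3cr1, Gm8797, H2-M2, I830077J02Rik, Rab30 and St8sia1. The median of macrophage identity genes was 0.021 on that scale and that of class II genes 0.22, both no longer below 0, while dendritic cell genes kept a median of -1.23. The 8 markers belong to the macrophage identity list, so that list is centred near 0 by construction. The complement list also turned, to 0.19, whereas monocyte genes were at -0.56, resident stromal macrophage genes at -0.24, cytosolic ribosomal protein genes at -0.05 and Toll-like and Fc receptor genes at -0.02. Among single genes, Itgam (0.99), itself among the 8 markers, and H2-Aa (0.59) turned from lower to higher on that scale, and Actb was at -0.72. Il1b stayed lower by 2.34 in mean log2 level, though without a call.

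The cultured libraries were not alike, and each treatment has 1 library, so their differences have no replicate check. Of 20 interferon response genes, 15 (75.0%) were lower in both libraries with AKT inhibitor than in both without, against 22.0% of all tested genes. Rsad2, the antiviral enzyme viperin, had 1657, 2159.7, 358 and 479.7 CPM in the cultured libraries, against 63.9, 165, 85.3 and 67.3 CPM in the fresh control libraries. Its 2 cultured libraries without inhibitor were the highest of the 8, and those with it still stood above all fresh control libraries. Ptgs2, the inducible cyclooxygenase, had 732, 999, 144 and 165 CPM in the cultured libraries, against 494, 485, 517 and 407 CPM in the fresh control libraries, so that the cultured libraries lay on both sides of the fresh ones. Endothelial genes did not follow that order: none of the 10 was lower in both inhibitor libraries, and 4 (40.0%) were higher in both, against 17.2% of all tested genes. Inhba, Csf3 and Cxcl3 were each lower in both, as the values above show, yet all remained apart from the fresh control side. Against all 11 fresh libraries Inhba kept a gap of 5.56, while Csf3 (0.57) and Cxcl3 (1.77) fell short of the 4-fold mark.

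**Figure D4:**
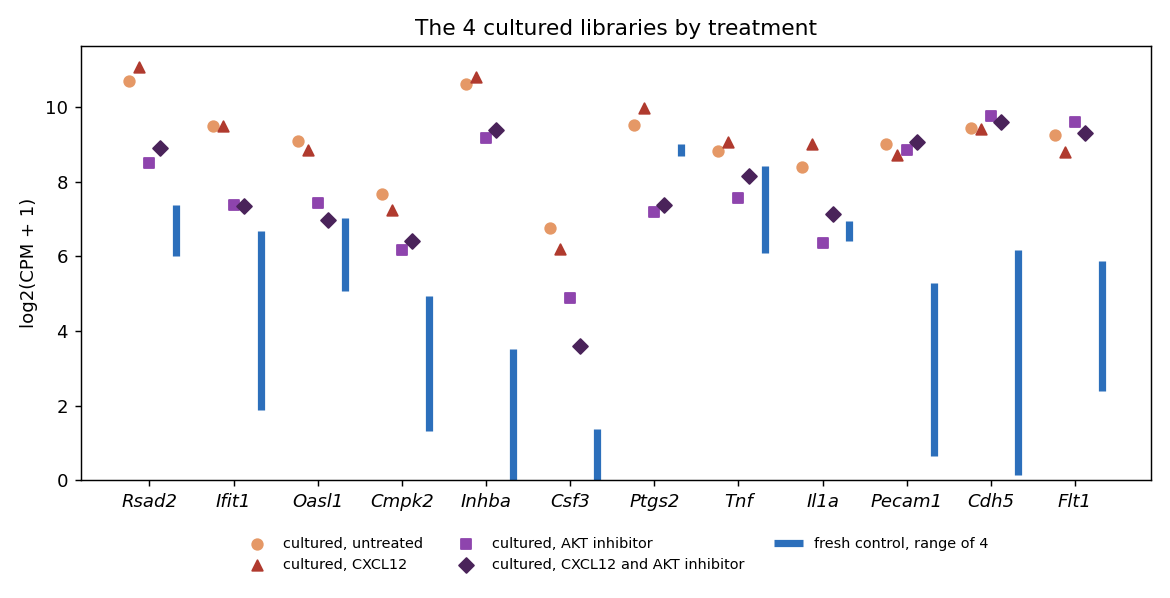
Levels of 12 genes on log2(CPM + 1) in the 4 cultured libraries by treatment, beside the range of the 4 fresh control libraries as a bar. Rsad2, Ifit1, Inhba and Csf3 are lower in both libraries with AKT inhibitor but above the fresh range, Ptgs2 and Il1a straddle or meet it, and Pecam1, Cdh5 and Flt1 are high in all 4 cultured libraries.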

How the data were processed

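RNA of sorted mouse mammary cells was sequenced after ribosomal RNA depletion, per the labels' protocols. STAR 2.7.8a and Partek are named in the submitters' processing notes, as is a human build, although the deposited gene symbols are mouse; counting, settings and use of strand are not given in the sources used here, so reads of overlapping genes cannot be told apart. The culture, knockout and CXCR4-sort tables were normalized separately. The authors deposited log2 values, read from the values themselves as log2(CPM + 0.0001). They were turned back to CPM and analysed as log2(CPM + 1), with differences of low genes understated by the pseudocount. One read was taken as the commonest lowest value; 75.3% to 90.4% of values up to 50 reads were whole multiples within 0.05 in the 8 libraries, so no count test was run. Start positions matched GENCODE M21 for 97.1% of the fresh and 2.58% of the culture table, so coordinates come from the fresh table's genes.

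Of entries sharing a symbol, the one with the higher level was kept. A gene passed with 1 CPM in 4 of 8 libraries. Gaps, list medians and counts were computed with Python 3.11.15, numpy and pandas. The code of the gap rule was run on simulated data with equal depths and less spread between libraries than here. That run does not measure how the rule performs on these libraries. The 42 gene lists hold 774 memberships; 3 more lists were added after values had been seen. The comparison and all lists were chosen with earlier results of these data known. Genes named are the 12 widest gaps in each direction with symbols occurring once, up to 3 called members of a list in each direction, the highest uncalled member of a described list, and Adgre1, Itgam, Csf1r, Ptprc, Cxcr4, Cxcl12 and Lyz2; some were left out for length or are not reported here, and others named are members of the lists described or are marked as chosen after their values were seen. Alternatives were scale, pseudocount, filter, gap, join and the libraries on each side.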

Additional observations from a re-analysis of the deposited data

Results flagged for a closer look

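In each side of 4 libraries, the gap between the most distant library and its nearest neighbour was set against the side's range on log2(CPM + 1) and held against Dixon's 95% critical value. It was applied to the named genes and to the list sums, 270 sets in all, and 20 (7.41%) passed. The rate of 1 in 20 holds for independent replicates with normal values. Here many genes were named for a wide gap, and some sets had all but 1 library at 0. The 4 cultured libraries also had 4 treatments, so the share passing cannot be held against that rate. No cause was tested for any of the 20.

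Among fresh control libraries, K8-Cre control 2 was the highest for Inhba at 10.5 CPM (others at most 0.212), Pcdh1 at 5.08 CPM, Csf3 at 1.58 CPM and Asns at 2.71 CPM, and the lowest for Pfkfb3 at 307 CPM. LysM-Cre control 2 was the highest for Sele at 1.74 CPM and Emcn at 5.07 CPM, and the lowest for Csf3r at 12.5 CPM, Hspa1b at 934 CPM, the immediate early and heat shock sum at 15917 CPM (others at least 26393) and the mitochondrially encoded sum at 8420.3 CPM (others at least 19162). K8-Cre control 1 was the highest for Il7r at 402 CPM and for the cell cycle sum at 1385 CPM.

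Among cultured libraries, the one with AKT inhibitor was highest for Emcn at 91.4 CPM and St8sia1 at 0.977 CPM. That with CXCL12 was highest for Pax5 at 7.20 CPM, H3c2 at 1.29 CPM and I830077J02Rik at 0.379 CPM, with the other 3 at 0. The library with both agents was lowest for Rpl19 at 4.91 CPM and Ptprc at 225 CPM.

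Genes listed in one table only took no part in the comparison. Of protein-coding entries with at least 10 CPM in all 4 libraries of a side, 10 were listed in the culture table alone, among them the endothelin gene Edn1 (73.4 to 129.9 CPM), and 5 in the fresh table alone, among them H2-Oa (17.9 to 174 CPM), a modulator of class II loading in B cells and dendritic cells. A table lists genes past a level, so an unlisted gene need not be at 0.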

How the results depend on the processing

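No paired analysis was possible because the cultured libraries share no replicate numbers with the fresh ones and no test was run between the tables. All 44 called genes named by rule kept their direction in all 1403 values under 32 alternatives, and 1203 moved by less than the spread between libraries. The sides of a called gene do not overlap, so dropping libraries or changing the gap, filter or pseudocount could not reverse it. For those settings, which are most of the alternatives, the kept direction is no check. Higher and lower calls numbered 158 and 63; they were 82 and 24 with a pseudocount of 10 CPM, 505 and 273 at a gap of 2-fold, 52 and 15 at 8-fold, 381 and 317 with the untreated cultured library alone, 252 and 127 without and 259 and 221 with AKT inhibitor, 463 and 117 against LysM-Cre controls, 774 and 202 against repeat 1, 779 and 10 when scaled by macrophage markers, and 88 and 14 against all 11 fresh libraries. Lower calls were 123 against K8-Cre controls and 118 against repeat 2. Leaving out 1 library gave 168 to 371 higher calls (371 without K8-Cre control 2) and 82 to 110 lower calls (110 without the cultured CXCL12 library). The endothelium median of 5.19 was 3.23 with a pseudocount of 10 CPM, 3.47 against repeat 2 and 3.65 against CXCR4-sorted libraries; its 6 calls became 3 and, at 8-fold, 2. The macrophage identity median of -1.49 was -1.92 against CXCR4-sorted libraries and 0.021 on the marker scale; its lower calls were 4 at 2-fold, 2 with the untreated library alone, against K8-Cre controls or repeat 1, and 1 to 2 when a library was left out. The count of genes ranging at least 4-fold, 4758 in cultured and 6501 in fresh libraries, was 676 and 2459 with a pseudocount of 10 CPM, and 2224 and 3873 with a filter of 10 CPM. In cultured libraries it was 7681 at 2-fold, 2997 at 8-fold, 1087 without and 2871 with AKT inhibitor, and 2634 to 4758 when a library was left out (2634 without the one with both agents). In fresh libraries it was 3273 and 3919 for the LysM-Cre and K8-Cre controls, 3751 and 1053 for repeats 1 and 2, 1686 for the CXCR4 sort, and 4475 to 6501 when a library was left out. The share of higher calls also apart from knockout libraries (62.7%) was 79.3% with a pseudocount of 10 CPM, 46.2% at 8-fold, 29.8% and 47.7% for calls against LysM-Cre and K8-Cre controls, 17.3% and 52.0% against repeats 1 and 2, and 34.2% to 63.3% with a library left out. From CXCR4-sorted libraries (68.4%) the share was 84.1%, 37.1%, 51.8%, 19.5% and 59.4% under the same settings without the 8-fold gap, and 40.3% to 68.9% with a library left out. For lower calls, the share apart from knockout libraries (57.1%) was 36.8% and 39.8% against LysM-Cre and K8-Cre controls, 20.3% against repeat 1, and 45.1% to 57.8% with a library left out. From CXCR4-sorted libraries (28.6%) it was 48.7% at 2-fold, 53.6% with the untreated library, 57.5% with AKT inhibitor, 11.4% against repeat 1, and 23.2% to 38.2% with a library left out. Depth limits low genes: 3 reads equal 0.103 to 0.209 CPM in cultured and 0.0806 to 0.349 CPM in fresh control libraries, for counting error only.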

Other observations

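Genes of hepatocytes were listed in the culture table at low levels. Of 24 such genes, chosen after Alb had been seen, all 24 were listed there and 20 were not listed in the fresh control table. Alb, albumin, had 107, 99.6, 134 and 105 CPM in the cultured libraries, and Apob, apolipoprotein B, had 66.9, 64.6, 86.6 and 72.6 CPM. The sum of the 20 genes was 299, 281, 365 and 302 CPM. For the 13 of these 20 with a mean of at least 5 CPM, the highest cultured library exceeded the lowest 1.13-fold to 2.11-fold, with a median of 1.37-fold, and 12 of them stayed under 1.5-fold. Another 4 genes were listed in both tables. Fgb, a fibrinogen chain, had 9.88, 16.6, 39.4 and 9.48 CPM in cultured libraries (4.16-fold from lowest to highest), against 0.424, 0.149, 0.349 and 10.1 CPM in fresh control libraries, so its sides overlapped. Fgg, another fibrinogen chain, had 27.5, 23.5, 8.24 and 21.3 CPM in cultured libraries (3.34-fold), against 6.01, 2.19, 0.626 and 4.09 CPM in fresh control libraries. Serpina1c, an alpha-1 antitrypsin gene with near-identical copies, had 3.42 to 5.43 CPM in cultured and 0 to 1.43 CPM in fresh control libraries. Cyp2e1, a hepatocyte cytochrome, had 11.6, 13.7, 14.7 and 10.6 CPM in cultured libraries, against 0, 1.42, 0 and 7.06 CPM in fresh control libraries. The source of these transcripts was not tested.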
